A study of Homo sapiens with 12 samples.

Results

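The comparison described here is the one between HCT116 cells given an siRNA against PFDN2 (siPFDN2) and cells given a control siRNA (siControl), both harvested after serum. Its members are 4 of the 12 RNA-seq libraries of the series, 2 per group, chosen by their sample titles. HCT116 is an established human colon carcinoma line. The study transfected these cells with an siRNA against PFDN2, against PFDN5 or a control by means of Oligofectamine, and sampled each before and after serum. Both groups compared were starved of serum for 48 h, beginning 24 h after the siRNA, and then received serum for 90 min. Total RNA was purified on columns and treated with DNase, and it was primed with random hexamers for SuperScript III after depletion of 18S rRNA. The labels name no separate cultures for the replicates, so each p-value measures the spread between libraries, which may be technical. In the tests of genes, unless another fit is named, this spread was taken from 10 libraries of 5 groups, including the 4 compared.

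PFDN2 encodes a subunit of prefoldin, a jellyfish-shaped complex that binds newly made actin and tubulin chains and hands them to the cytosolic chaperonin TRiC, where they fold. Subunits of prefoldin have also been found in the nucleus. In colon carcinoma cells, serum given after starvation switches on immediate-early genes within minutes, and starved cells that resume growth later pass through DNA replication and mitosis.

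The siRNA sequences are shown because they define the 2 groups and, through bases 2 to 8 of the antisense strand (the seed), the short sites counted later in 3′ untranslated regions. Capitals mark the seed, and each antisense strand was written as the reverse complement of the sense strand that the labels give.
siPFDN2 sense strand: cagccuagugaucgauaca
siPFDN2 antisense strand: uGUAUCGAucacuaggcug
siControl sense strand: cguacgcggaauacuucga
siControl antisense strand: uCGAAGUAuuccgcguacg
The 19 bases of siPFDN2 matched 1 annotated transcript, ENST00000368010 of PFDN2, at its bases 247 to 265 in the coding sequence. With 3 of these bases in exon 2 and 16 in exon 3 of its 4 exons, the site is interrupted by an intron in the genome (chr1:161102156-161102289, minus strand, GRCh38). The siControl sequence matched no annotated transcript.

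Reads were available in 3 forms: counts over whole gene bodies, counts over exons, and the difference between both, which is called the intron count. Levels are given as CPM, which scales each count to the normalized total of its library, and are not corrected for gene length, so they compare libraries and not genes. A log2 fold change is siPFDN2 minus siControl, with its standard error (SE). Adjusted p-values come from edgeR's two-sided quasi-likelihood test with Benjamini-Hochberg adjustment over all genes tested, and a gene passed when this value was under 0.05.

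PFDN2 (ENSG00000143256, chr1:161100556-161118111, minus strand, GRCh38) was lower in siPFDN2, as its exon counts stood at 7.89 and 9.39 CPM in siPFDN2 and 20.3 and 16.6 CPM in siControl. The siPFDN2 libraries lay below both siControl libraries, at 8.64 ± 1.06 against 18.4 ± 2.64 CPM (mean ± SD, n = 2 each), or 46.8% of siControl (log2 fold change -1.08, SE 0.129, adjusted p 0.00226). Gene-body counts gave 8.71 and 9.41 CPM against 18.7 and 16.2 CPM, or 51.9% (log2 fold change -0.94, SE 0.117, adjusted p 0.00638), and this gene-body value did not pass with all 12 libraries of the series in the fit (-0.98, adjusted p 0.772), with the 6 libraries after serum (adjusted p 0.137) or with only the 4 compared (adjusted p 0.173). Intron counts of PFDN2 stood at 11.8 and 9.83 CPM against 14.9 and 12.7 CPM. These also did not overlap, but their log2 fold change of -0.35 (SE 0.176, adjusted p 0.597) did not pass. PFDN2 overlaps 1 other annotated gene, NIT1, and no strand option was used in counting, so some of its fragments may belong to that gene. Estimated counts of ENST00000368010, the transcript that holds the siRNA site, came to 7.75 and 9.84 CPM in siPFDN2 and 24.4 and 19.2 CPM in siControl. In siControl, exon counts of PFDN2 rose with serum (log2 fold change 0.75, adjusted p 0.00135).

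**Figure D1:**
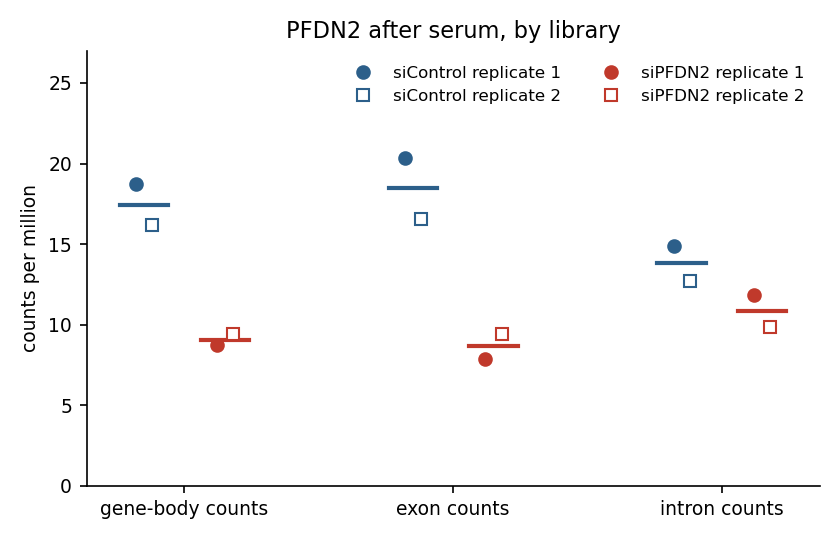
PFDN2 in each library after serum, in CPM (vertical axis), for gene-body, exon and intron counts (horizontal axis). Points are libraries (circles replicate 1, squares replicate 2) and bars are means of 2, and the siPFDN2 libraries lie below both siControl libraries in each kind of count, with the smallest distance in intron counts.

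The 4 libraries held 53033676 to 114454288 exon counts and 67060151 to 136504590 gene-body counts. Epithelial markers (EPCAM, CDH1, KRT8, KRT18, KRT19, CDX2, VIL1) summed to 2579 to 2880 CPM in exon counts. Fibroblast markers summed to 11.3 and 9.02 CPM in siPFDN2 and 17.6 and 13.2 CPM in siControl, nearly all from COL1A1, while leukocyte markers summed to 3.92 to 5.04 CPM with CD3E at 0. Fewer cells of a type and less RNA per cell cannot be told apart in such bulk samples. Over 3584 genes without overlap, replicate 1 of siControl stood apart from the other 3 libraries. There 10.3% of its counts were intronic, against 5.67% in replicate 2 and 6.12% and 5.35% in siPFDN2. Over all 27176 genes tested in gene-body counts the shares were 20.6% and 16.1% in siControl and 20.9% and 19.3% in siPFDN2. By this wider measure siControl replicate 2 was the lowest, and replicate 1 lay within the siPFDN2 range.

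In exon counts the comparison showed many small differences. Of 24422 genes tested, 1963 passed (8.04%), with 1273 higher in siPFDN2 (5.21%) and 690 lower (2.83%). Without any test, the libraries of the 2 groups did not overlap in 53.3% of the tested genes, with siPFDN2 above in 29.3% and below in 24%. The higher genes had a median log2 fold change of 0.32, or 125% of siControl, and 13 of them were at least 2-fold higher. The lower genes had a median of -0.43, or 74.0% of siControl, and 49 were at least 2-fold lower. Protein-coding genes made up 1077 of the higher and 621 of the lower genes, out of 14898 tested. Small noncoding RNAs counted 22 higher and 1 lower of 714, and pseudogenes 68 higher and 11 lower of 3105.

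Gene-body counts gave 109 of 27176 genes (0.401%), 38 higher (0.14%) and 71 lower (0.261%), and 5458 genes had an unadjusted p under 0.05. Of these 109 genes, 103 also passed in exon counts, all in the same direction. Transcript estimates summed per gene gave 1249 of 17508 genes (7.13%), and 1147 genes passed in both exon counts and these estimates (58.4% of the exon genes and 91.8% of the others), all in the same direction. For intron counts 0 of 19321 genes passed in edgeR (1520 at an unadjusted p under 0.05), and DESeq2 gave 5. The groups did not overlap in 31.2% of these genes.

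How many genes passed depended on the libraries that set the spread. The fit used 10 libraries, without the siPFDN2 libraries before serum, whose replicates differed most in the series (SD of their log2 difference 0.717 over 11197 genes, against 0.119 in siPFDN2 and 0.183 in siControl after serum). With all 12 libraries 0 genes passed in gene-body or exon counts (1747 and 1205 unadjusted), with the 6 libraries after serum 0 and 753, and with only the 4 libraries compared 1 and 366. Without siControl replicate 1 the numbers were 216 and 379 (331 of the 379 among the 1963), and without siControl replicate 2 they were 8554 and 5157. Exon counts without siPFDN2 replicate 1 or 2 gave 43 or 30 genes, and gene-body counts gave 0 (3377 and 2950 unadjusted). The split also moved with the scaling, to 603 higher and 947 lower with upper-quartile scaling, 327 and 676 with library size only, 916 and 743 with relative log expression, and 924 and 885 among genes with at least 10 counts in every library. Across 11 fits of the exon counts, 201 of the 1963 genes passed in each, 71 higher and 130 lower. These fits were the 10-library one, the 6-library and 4-library ones, those with upper-quartile or library-size scaling, with the GC trend or both GC and length trends removed, with a replicate block and with DESeq2, and those without each siControl library after serum. They do not include the fit with all 12 libraries or those without a siPFDN2 library, where fewer than 201 genes passed. Of the 201 genes, 37 also passed without siPFDN2 replicate 1, 24 without replicate 2 and 14 in both of these fits.

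Among the genes with the largest increases, DUSP23, a small dual-specificity phosphatase, stood at 15.1 and 16.4 CPM in siPFDN2 and 9.01 and 10.6 CPM in siControl in exon counts. Its siPFDN2 libraries lay above both siControl libraries (log2 fold change 0.68, SE 0.09, adjusted p 0.00188). CLDN12, a claudin of cell junctions, stood at 60.7 and 59.4 CPM in siPFDN2 and 35.7 and 42.7 CPM in siControl (log2 fold change 0.61, SE 0.0808, adjusted p 0.00188). ARL6IP1, a protein that shapes membranes of the endoplasmic reticulum, stood at 317 and 329 CPM in siPFDN2 and 210.1 and 231 CPM in siControl (log2 fold change 0.55, SE 0.0745, adjusted p 0.00205). FOPNL, a centrosomal protein needed for cilia, stood at 87.3 and 88.6 CPM in siPFDN2 and 53.5 and 61.5 CPM in siControl (log2 fold change 0.61, SE 0.078, adjusted p 0.00188). Libraries labelled siPFDN5 after serum, against the same siControl libraries, gave 0.46, 0.57, 0.53 and 0.51 for DUSP23, CLDN12, ARL6IP1 and FOPNL. In each of these 4 genes siControl replicate 1 was the lowest library, the groups did not overlap, and the gene passed in the 11 fits. CLDN12 and FOPNL also passed when either siPFDN2 library was left out, while DUSP23 and ARL6IP1 did not without siPFDN2 replicate 2 (adjusted p 0.0502 each). DHRS2, a short-chain dehydrogenase, stood at 16.1 and 22.7 CPM in siPFDN2 and 12.2 and 10.5 CPM in siControl (log2 fold change 0.78, SE 0.139, adjusted p 0.0101), and here siPFDN2 replicate 2 was the highest. Without that library DHRS2 did not pass (adjusted p 0.11). SNORA79B, an H/ACA small nucleolar RNA that overlaps CCNB1IP1, stood at 48.9 and 32.3 CPM in siPFDN2 and 16.8 and 18.8 CPM in siControl (log2 fold change 1.18, SE 0.239, adjusted p 0.0398). Its siPFDN2 libraries were spread the most widely of these genes, and it passed in 6 of the 11 fits. Its log2 fold change was 1.09 without siControl replicate 1 and 1.27 without replicate 2.

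The other genes named for their increases in gene-body counts were C6orf120, at a log2 fold change of 0.53, and 6 annotated noncoding or pseudogene models. AC006153.1 shares its locus with CLDN12, U47924.1 is antisense to PHB2, AL138789.1 is antisense to DEPDC1, and AC091153.1 and AC091153.3 overlap each other, the latter also PELP1. Since counts ignored the strand and a fragment over several genes was counted for each, their fragments cannot be assigned to 1 gene. RPL21P16 is a pseudogene copy of the ribosomal protein gene RPL21. Its log2 fold change was 0.53 in gene-body counts and -2.21 in transcript estimates (adjusted p 0.512), so its direction is uncertain.

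MRC2, the collagen-binding endocytic receptor Endo180 (chr17:62627401-62693597), stood at 15.5 and 14.2 CPM in siPFDN2 and 28.03 and 32.9 CPM in siControl, and its groups were far apart (log2 fold change -1.05, SE 0.0928, adjusted p 7.35e-05). SAMD4B, an RNA-binding repressor of the Smaug family, stood at 43.4 and 41.9 CPM in siPFDN2 and 81.2 and 77.98 CPM in siControl (log2 fold change -0.90, SE 0.087, adjusted p 0.000183). CD276, the immune checkpoint ligand B7-H3, stood at 34.7 and 33.9 CPM in siPFDN2 and 57.8 and 58.9 CPM in siControl (log2 fold change -0.77, SE 0.0671, adjusted p 7.35e-05). The replicates of SAMD4B and CD276 lay within a few CPM of each other, with all siPFDN2 values below all siControl values. SUSD2, a sushi-domain membrane protein, stood at 12.7 and 11.5 CPM in siPFDN2 and 20.7 and 25.97 CPM in siControl (log2 fold change -0.96, SE 0.124, adjusted p 0.00291). CEMIP, which takes part in hyaluronan breakdown, stood at 9.44 and 9.98 CPM in siPFDN2 and 19.04 and 15.3 CPM in siControl (log2 fold change -0.81, SE 0.105, adjusted p 0.00188). ARC, an activity-regulated gene known from neurons, stood at 13.8 and 14.5 CPM in siPFDN2 and 25.9 and 23.3 CPM in siControl (log2 fold change -0.80, SE 0.0912, adjusted p 0.000754). These 6 genes did not overlap between groups and passed in the 11 fits and, except SUSD2 without siPFDN2 replicate 2 (adjusted p 0.0632), when either siPFDN2 library was left out. MRC2, SUSD2 and CEMIP had the widest gap between the siControl libraries. For the 6 genes in the order named, libraries labelled siPFDN5 gave -0.46, -0.35, -0.26, 0.02, -0.98 and 0.07 against the same siControl libraries.

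ARID5B, ZMIZ1, CRISPLD2, ZCCHC24 and KIAA1522 completed the named decreases, with log2 fold changes of -0.73, -0.66, -0.64, -0.73 and -0.76 in exon counts. ARID5B is a DNA-binding chromatin factor, ZMIZ1 a transcriptional coactivator, and CRISPLD2 a secreted protein. ZMIZ1 and KIAA1522 did not pass without siControl replicate 1 (adjusted p 0.171 and 0.1). Without siPFDN2 replicate 2 none of these 5 passed (adjusted p 0.0502 to 0.21), and without replicate 1 ZCCHC24 did (adjusted p 0.013). Intron counts of MRC2 stood at 3.83 and 4.85 CPM against 8.45 and 6.42 CPM, and those of CRISPLD2 at 8.35 and 7.24 CPM against 21.0 and 13.9 CPM. Both were lower in each siPFDN2 library, and neither passed (adjusted p 0.597 each).

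Of the lists examined, that of mitosis held the most genes that rose. Of its 26 members tested in exon counts, 18 rose and 0 fell, where 5.21% of all tested genes rose, and the median log2 fold change of the list was 0.30 against -0.001 over all genes. CDK1, the kinase that starts mitosis, stood at 138 and 142 CPM in siPFDN2 and 84.4 and 101 CPM in siControl (log2 fold change 0.60, SE 0.0826, adjusted p 0.00226). Its cyclin partners CCNB1 and CCNA2 stood at 179 and 198 CPM in siPFDN2 and 128 and 148 CPM in siControl (log2 fold change 0.45, SE 0.0798, adjusted p 0.00695) and at 117 and 124 CPM in siPFDN2 and 83.7 and 93.2 CPM in siControl (log2 fold change 0.45, SE 0.0723, adjusted p 0.00463). The siPFDN2 libraries of all 3 genes lay above both siControl libraries, of which replicate 1 was the lower.

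Genes of the spindle checkpoint rose as well. BUB1, a checkpoint kinase, stood at 118 and 117 CPM in siPFDN2 and 84.1 and 92.2 CPM in siControl (log2 fold change 0.41, SE 0.0679, adjusted p 0.00483), and BUB1B, MAD2L1 and TTK rose by log2 fold changes of 0.31, 0.43 and 0.42. Among mitotic motors and factors of cytokinesis, ANLN, a scaffold of the contractile ring, stood at 226 and 225 CPM in siPFDN2 and 152 and 171 CPM in siControl (log2 fold change 0.49, SE 0.0794, adjusted p 0.0047). KIF23, the motor of the central spindle, stood at 127 and 132 CPM in siPFDN2 and 98.8 and 99.8 CPM in siControl (log2 fold change 0.38, SE 0.062, adjusted p 0.0047), and its siControl libraries were nearly equal. KIF20A stood at 76.2 and 84.7 CPM in siPFDN2 and 57.4 and 62.5 CPM in siControl (log2 fold change 0.43, SE 0.073, adjusted p 0.00598). The kinases AURKA and AURKB rose by 0.42 and 0.30, and the remaining members that rose were CCNB2, CENPE, KIF11, NUSAP1, PRC1 and BIRC5, between 0.25 and 0.35.

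The 8 mitosis genes that did not pass were CDC25C, TOP2A, TPX2, CENPF, CDC20, ASPM, PLK1 and MKI67. PLK1, a mitotic kinase, stood at 34.4 and 42.8 CPM in siPFDN2 and 47.2 and 38.2 CPM in siControl, and MKI67, the proliferation antigen Ki-67, at 272 and 322 CPM in siPFDN2 and 433 and 273 CPM in siControl. In both, siControl replicate 1 was the highest library and siControl replicate 2 lay within the siPFDN2 range. The list counted 8 of 26 higher without siControl replicate 1 (CDK1, CCNB1, CCNA2, BUB1, BUB1B, KIF20A, KIF23 and ANLN) and 21 without replicate 2, 15 with both GC and length trends removed, 12 with the 6 libraries after serum, 6 with the 4 libraries, and 0 with all 12. Without siPFDN2 replicate 1 it counted 1 (CDK1, adjusted p 0.0408) and without replicate 2 it counted 0, with list medians of 0.34 and 0.32. Intron counts of the list had the same median as exon counts, 0.30, with 23 of 26 positive and 0 that passed. DNA replication genes counted 2 higher (GINS3, RFC3) and 0 lower of 28, where 5.21% and 2.83% of all tested genes were. Log2 fold changes of both genes were smaller without siControl replicate 1, at 0.21 and 0.19 against 0.29 and 0.26.

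Promoters of the mitosis genes were searched for CCAAT and for TTTGAA on both strands, because cell-cycle promoters are known for CCAAT boxes and for the TTTGAA core of the cell-cycle homology region. The window ran from 250 bases before to 50 after the start in RefSeq (GRCh38.p14), and the motifs do not overlap each other in sequence. Of the 18 genes that rose 15 had a promoter in that table, and 12 held CCAAT, 9 held TTTGAA and 7 held both. CCAAT was held by 34.6% of the 35116 promoters there, TTTGAA by 15.2% and both by 5.9%. Of the 7 matched mitosis genes that did not pass, 6 held both motifs. The 100 bases before the start of KIF23 (chr15:69414249-69414348, plus strand) and of ANLN (chr7:36389762-36389861, plus strand) are shown as examples that hold TTTGAA near the start, with the motifs or their reverse complements in capitals.
KIF23: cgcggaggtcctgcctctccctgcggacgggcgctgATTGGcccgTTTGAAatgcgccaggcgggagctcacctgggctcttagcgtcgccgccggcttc
ANLN: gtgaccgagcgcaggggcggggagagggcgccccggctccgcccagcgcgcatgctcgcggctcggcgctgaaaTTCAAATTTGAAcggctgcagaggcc
Such a match describes the letters only, and binding was not measured.

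Among genes of the extracellular matrix and of adhesion, 10 of 34 tested fell and 0 rose, where 2.83% of all tested genes fell, and the median log2 fold change was -0.25. FN1, which encodes fibronectin, stood at 12.7 and 12.4 CPM in siPFDN2 and 23.2 and 17.2 CPM in siControl (log2 fold change -0.68, SE 0.147, adjusted p 0.0255). The laminin chains LAMA5, LAMB1 and LAMC1 of the basement membrane fell by 0.45, 0.48 and 0.45 on the log2 scale. LAMB1 stood at 55.9 and 53.7 CPM in siPFDN2 and 76.6 and 76.4 CPM in siControl, with nearly equal replicates. The collagen genes COL6A1, COL6A2 and COL17A1 changed by -0.60, -0.32 and -0.80.

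ITGB4, the integrin chain that anchors epithelial cells to laminin, stood at 103 and 97.9 CPM in siPFDN2 and 163 and 154 CPM in siControl (log2 fold change -0.66, SE 0.0916, adjusted p 0.00272). MRC2, described above, was also among the 10 genes. Without siControl replicate 1, LAMB1, COL17A1, ITGB4 and MRC2 passed, whereas FN1, LAMA5, LAMC1, COL6A1 and COL6A2 did not (adjusted p 0.0528, 0.0511, 0.0832, 0.106 and 0.0544). Of the members that did not pass, HSPG2 had the most negative value (-0.86, adjusted p 0.11) and MMP7 the most positive (0.75, adjusted p 0.0754). The list counted 8 lower without siControl replicate 1, not all of them among the 10, and 13 lower and 4 higher without replicate 2. With GC and length trends removed it counted 8, with the 6 or 4 libraries 10 and 8, and with all 12 libraries 0. Without siPFDN2 replicate 1 it counted 3 (COL17A1, ITGB4, MRC2) and without replicate 2 it counted 1 (MRC2). Over all tested genes, 479 of 24422 were lower with GC and length trends removed, 449 of 23059 with the 6 libraries and 265 of 22732 with the 4. List counts without 1 library cannot be set against 10, since the number of all genes that passed also moved (above). The sum of fibroblast markers, nearly all from COL1A1 (log2 fold change -0.62, adjusted p 0.0859), was also lower in siPFDN2 (above). COL1A2, PDGFRA and DCN had at most 2, 2 and 1 exon counts in any of the 4 libraries. The part of these markers in the result was not tested.

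**Figure D2:**
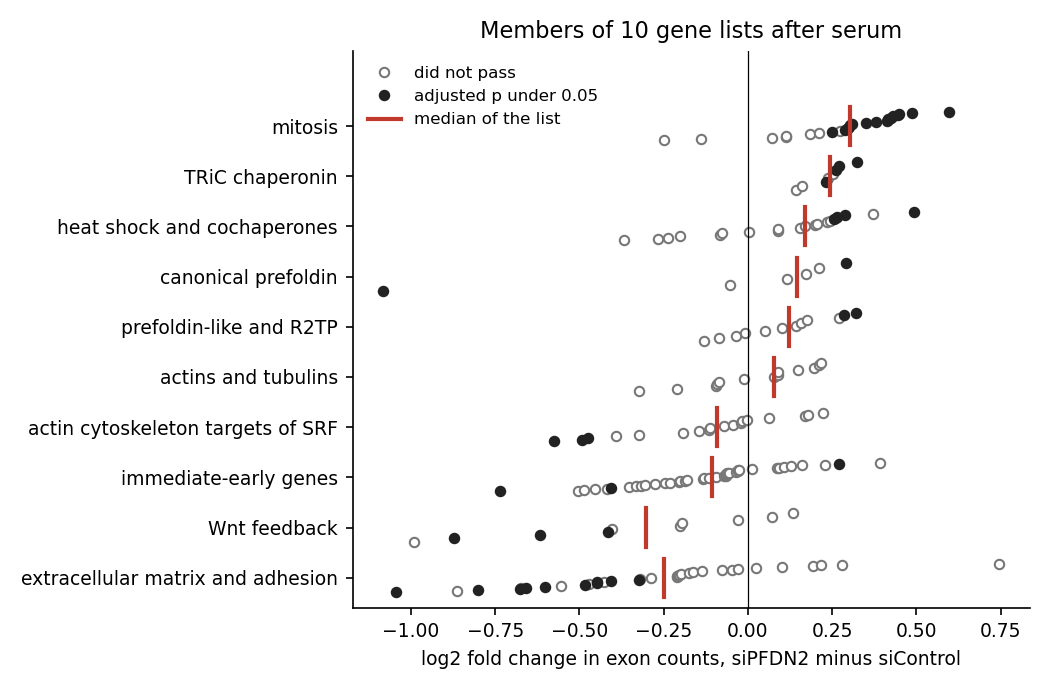
Log2 fold change of each tested member of 10 gene lists in exon counts (horizontal axis, siPFDN2 minus siControl after serum), 1 row per list. Filled points had an adjusted p under 0.05, open points did not, and red bars are list medians, which run from 0.30 for mitosis to -0.25 for extracellular matrix and adhesion and -0.30 for Wnt feedback.

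Among the other subunits of prefoldin only PFDN4 passed. It stood at 31.1 and 27.6 CPM in siPFDN2 and 23.4 and 24.5 CPM in siControl (log2 fold change 0.29, SE 0.0849, adjusted p 0.0457), which was lost with the GC trend removed (adjusted p 0.272) and without siControl replicate 1 (adjusted p 0.245). PFDN1, VBP1, PFDN5 and PFDN6 did not pass. PFDN5, the other subunit that the study targeted, stood at 99.5 and 97.95 CPM in siPFDN2 and 87.3 and 87.8 CPM in siControl, and its siPFDN2 libraries lay slightly above both controls (log2 fold change 0.17, SE 0.0674, adjusted p 0.122). Of the prefoldin-like complex and its R2TP partners, 2 of 12 rose, URI1 (log2 fold change 0.28) and UXT (0.32), where 5.21% of all tested genes rose. Neither passed without siControl replicate 1 (adjusted p 0.191 and 0.183) or when either siPFDN2 library was left out.

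The chaperonin TRiC, which receives the clients of prefoldin, counted 4 of 8 subunits higher and 0 lower, where 5.21% and 2.83% of all tested genes were, with a median of 0.25. TCP1 stood at 516 and 531 CPM in siPFDN2 and 393 and 444 CPM in siControl (log2 fold change 0.32, SE 0.0745, adjusted p 0.0192), and CCT5, CCT6A and CCT8 rose by 0.23, 0.26 and 0.27. All 8 subunits had positive values and no overlap between the groups, as had 29.3% of all tested genes. Without siControl replicate 1 none of these 4 passed (adjusted p 0.137 to 0.298) and the median of the 8 was 0.15, and with the GC trend or both trends removed 1 subunit passed. When either siPFDN2 library was left out, 0 passed, with medians of 0.26 and 0.24. Of the cofactors of TRiC and of tubulin folding, TBCA, which holds β-tubulin, rose by 0.28, 1 of 7 tested, and did not pass without siControl replicate 1 (adjusted p 0.116).

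Heat shock proteins and cochaperones counted 4 higher and 0 lower of 21, against 5.21% and 2.83% of all tested genes. HSPA8, the constitutive HSP70, stood at 2514 and 2422 CPM in siPFDN2 and 1562 and 1945 CPM in siControl (log2 fold change 0.49, SE 0.094, adjusted p 0.0104), and siControl replicate 1 was again the lowest. HSPD1 and HSPE1, the mitochondrial chaperonin and its cofactor, rose by 0.26 and 0.29, and CHORDC1, a partner of HSP90, by 0.25. Without siControl replicate 1 these 3 did not pass (adjusted p 0.131, 0.1 and 0.286) while HSPA8 did (0.0405), and when either siPFDN2 library was left out 0 of the list passed. The stress-inducible HSPB1, BAG3 and DNAJB1 had values of -0.37, -0.27 and -0.08 and did not pass. The unfolded protein and integrated stress responses counted 0 of 20 in edgeR, with 5 at an unadjusted p under 0.05, 1 in DESeq2 and a median of 0.07. Of all 24422 tested genes, 6162 had an unadjusted p under 0.05 in edgeR.

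Actins and tubulins, the main clients of prefoldin, counted 0 of 13 genes in edgeR, with 5 at an unadjusted p under 0.05 and 1 in DESeq2. Over all 24422 tested genes 1963 passed in edgeR, 6162 had an unadjusted p under 0.05 and 2278 passed in DESeq2. ACTB stood at 1978 and 2071 CPM in siPFDN2 and 2161 and 2163 CPM in siControl (log2 fold change -0.09, SE 0.0712, adjusted p 0.435) and ACTG1 at 3223 and 3439 CPM in siPFDN2 and 3409 and 3306 CPM in siControl (log2 fold change -0.01, SE 0.0682, adjusted p 0.942), where the groups overlapped. TUBA1B and TUBB stood at 577 and 657 CPM in siPFDN2 and 516 and 549 CPM in siControl and at 1013 and 1082 CPM in siPFDN2 and 947 and 941 CPM in siControl, with log2 fold changes of 0.21 and 0.15 that did not pass. TUBA4A had the most negative value (-0.32, adjusted p 0.0574). TUBB6 passed with the GC trend removed (adjusted p 0.0493).

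Of 18 genes of the actin cytoskeleton known as targets of SRF, the serum response factor, 3 fell and 0 rose, where 2.83% of all tested genes fell. FLNA, the actin crosslinker filamin A, stood at 495 and 473 CPM in siPFDN2 and 773 and 669 CPM in siControl (log2 fold change -0.58, SE 0.08, adjusted p 0.00226). ACTN1, which encodes α-actinin, stood at 116 and 128 CPM in siPFDN2 and 179.8 and 160.0 CPM in siControl (log2 fold change -0.48, SE 0.0883, adjusted p 0.00904). MYH9, the heavy chain of nonmuscle myosin, stood at 384 and 387 CPM in siPFDN2 and 622 and 465 CPM in siControl (log2 fold change -0.49, SE 0.118, adjusted p 0.0318). In all 3 genes siControl replicate 1 was the highest library, and MYH9 did not pass without that library (adjusted p 0.0876). The list counted 1 lower without siPFDN2 replicate 1 (FLNA, adjusted p 0.035), and 0 without replicate 2 and with all 12 libraries. SRF itself stood at 141 and 149 CPM in siPFDN2 and 156 and 157 CPM in siControl and VCL at 463 and 390.4 CPM in siPFDN2 and 410.2 and 455 CPM in siControl, and neither passed.

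Of 40 immediate-early genes of the serum response, 1 rose and 2 fell, against 5.21% and 2.83% of all tested genes, and the median was -0.11. DESeq2 gave 3 higher and 8 lower for the same 40 genes, against 1374 and 904 of all 24422 tested genes. EGR3, an early growth response factor, stood at 64.3 and 63.9 CPM in siPFDN2 and 119.6 and 94.01 CPM in siControl (log2 fold change -0.73, SE 0.127, adjusted p 0.0127). CTGF, a matricellular protein, stood at 111 and 113 CPM in siPFDN2 and 157 and 139.8 CPM in siControl (log2 fold change -0.41, SE 0.084, adjusted p 0.0129). Both are strongly induced genes, each with a log2 fold change of 6.35 with serum in siControl. ARC, lower in siPFDN2 as described above, was not among the 40 and rose with serum in siControl (log2 fold change 1.63, adjusted p 2.83e-09). IER3 stood at 449 and 485 CPM in siPFDN2 and 399.9 and 374 CPM in siControl (log2 fold change 0.27, SE 0.0675, adjusted p 0.0263). Without siControl replicate 1, IER3 passed (adjusted p 0.0421) and CTGF did not (0.0566). When either siPFDN2 library was left out, and with all 12 libraries, 0 of the 40 genes passed (EGR3 at adjusted p 0.0807, 0.121 and 0.906).

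The best known members did not pass. FOS stood at 39.3 and 51.8 CPM in siPFDN2 and 87.9 and 42.3 CPM in siControl, EGR1 at 95.7 and 126 CPM in siPFDN2 and 177 and 98.8 CPM in siControl and FOSB at 202 and 235 CPM in siPFDN2 and 363 and 221 CPM in siControl. In these 3 genes siControl replicate 1 was far above the other 3 libraries, and siControl replicate 2 lay within the siPFDN2 range. NR4A3, whose log2 fold change with serum was 8.85 in siControl, stood at 289 and 283 CPM in siPFDN2 and 346 and 311 CPM in siControl (adjusted p 0.103), and JUN and MYC had values of 0.09 and 0.01. The difference of the serum response between siPFDN2 and siControl was tested with all 12 libraries. In edgeR 0 genes passed in exon counts (1784 of 24889 at an unadjusted p under 0.05) or gene-body counts (1841 of 27915). That fit also gave 0 genes for siPFDN2 against siControl after serum, with PFDN2 at adjusted p 0.906 in exon counts. Its 0 therefore cannot tell whether the serum responses differed.

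Among feedback targets of Wnt signalling, which is constitutively active in HCT116 through mutant β-catenin, 3 of 10 fell and 0 rose, where 2.83% of all tested genes fell. AXIN2, a negative regulator of β-catenin that serum lowered in siControl (log2 fold change -2.14), stood at 4.86 and 4.70 CPM in siPFDN2 and 6.78 and 7.82 CPM in siControl (log2 fold change -0.62, SE 0.137, adjusted p 0.0197). TCF7, a partner of β-catenin on DNA, stood at 12.99 and 13.4 CPM in siPFDN2 and 17.7 and 17.6 CPM in siControl (log2 fold change -0.42, SE 0.0833, adjusted p 0.0114). TNFRSF19 stood at 0.545 and 0.672 CPM in siPFDN2 and 1.06 and 1.18 CPM in siControl (log2 fold change -0.87, SE 0.227, adjusted p 0.0307). In all 3 the siPFDN2 values lay below both controls. AXIN2, TCF7 and TNFRSF19 passed in 9, 11 and 6 of the 11 fits. Without siControl replicate 1 their log2 fold changes were -0.727, -0.428 and -0.957, and without replicate 2 -0.495, -0.411 and -0.771. When either siPFDN2 library was left out, and with all 12 libraries 0 of the 10 passed.

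Small interfering RNAs can also lower transcripts that pair only with the seed, as microRNAs do. The site complementary to bases 2 to 8 of the siPFDN2 antisense strand, TCGATAC, was searched in the longest annotated 3′ untranslated region of 14754 tested genes (GENCODE 29), a search chosen after values had been seen and given without a test. Of 146 genes with this site, 27 were lower (18.5%) and 3 higher (2.06%), where 4.19% and 7.20% of all 14754 were. Their median log2 fold change was -0.13, against 0.02 over all. Split by length, the 96 genes with only the 7-base site counted 20 lower (20.8%, median -0.17), and the 50 whose site is followed by A (8 bases) counted 7 (14%, median -0.10). Genes with only the 6-base site CGATAC counted 30 lower of 354 (8.48%), with a median of -0.08, and genes with none of these sites 561 of 14254 (3.94%).

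The same search was made for the other strands. For the siPFDN2 sense strand (site CTAGGCT) 81 of 1406 genes were lower (5.76%), with a median of -0.005. For the siControl antisense strand (site TACTTCG) 32 of 263 genes were higher in siPFDN2 (12.2%) and 9 lower, with a median of 0.08. For the siControl sense strand (site CGCGTAC) 3 of 45 were higher and 2 lower. Genes with a TCGATAC site had longer 3′ untranslated regions, so they were also counted within length classes. In the class of the longest regions (from 2319 bases) 22 of 95 genes with the site were lower (23.2%), against 5.48% of those without it. In the middle class the numbers were 5 of 42 (11.9%) and 3.82%, and in the shortest 0 of 9 and 2.87%.

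Sites of genes that were lower are shown with 8 bases on either side, as read from the annotated transcripts (GENCODE 29). They display how the same 7 bases, in capitals, recur in unrelated surroundings, and the positions below are in GRCh38. The 6 genes chosen are those with the site that passed in the 11 fits.
PLEKHG1: gtttctaaTCGATACaaagttaa
LTBP1: aaaagtctTCGATACaatattgt
ZCCHC24: gctataatTCGATACatagtgaa
ZCCHC14: ttgtgtacTCGATACcttcacag
FAM114A1: ctgcatgtTCGATACaatacacc
FZD5: cagggcatTCGATACtgtttatg
The capitals lie at chr6:150841778-150841784 (plus strand) for PLEKHG1, chr2:33398990-33398996 (plus) for LTBP1, chr10:79383120-79383126 (minus) for ZCCHC24 and chr16:87406547-87406553 (minus) for ZCCHC14. For FAM114A1 they lie at chr4:38945391-38945397 (plus) and for FZD5 at chr2:207763068-207763074 (minus). In PLEKHG1, LTBP1, ZCCHC24 and FAM114A1 the site is followed by A, which extends the match by 1 base.

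PLEKHG1 stood at 9.58 and 10.5 CPM in siPFDN2 and 18.9 and 15.6 CPM in siControl (log2 fold change -0.77, SE 0.109, adjusted p 0.00271). LTBP1, which binds latent TGF-β in the matrix, stood at 4.70 and 4.88 CPM in siPFDN2 and 8.44 and 7.59 CPM in siControl (log2 fold change -0.74, SE 0.106, adjusted p 0.00272). ZCCHC14, a zinc-knuckle protein, stood at 44.1 and 42.99 CPM in siPFDN2 and 66.9 and 61.9 CPM in siControl (log2 fold change -0.56, SE 0.0777, adjusted p 0.00226). In these genes both siPFDN2 libraries lay below both siControl libraries by more than the distance between replicates. The genes with the site also included ZCCHC24 and KIAA1522, named above for their decrease, LAMC1 of the matrix list, the Wnt receptors FZD4 and FZD5, and TXNDC5, whose counts are shared with the read-through gene BLOC1S5-TXNDC5. CNOT2, PTMA and AK6 had the site and were higher. Since the longest region of any annotated transcript was searched, a site may be coding in another transcript, which was not checked. Of the genes that passed in the 11 fits, 6 of the 122 lower and 0 of the 55 higher ones with a 3′ untranslated region held the site. Over all tested genes with such a region, 146 of 14754 held it, so few were to be found among 55.

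The number of lower genes with the site was 23 of 146 (15.8%, against 2.67% without it) with GC and length trends removed, and 14 (9.59%, against 1.52%) without siControl replicate 1. It was 26 of 143 (18.2%, against 2.71%) with the 6 libraries after serum and 12 of 143 (8.39%, against 1.66%) with the 4 libraries. Without siPFDN2 replicate 1 it was 4 (2.74%, against 0.164%), without replicate 2 it was 1 (0.685%, against 0.11%), and with all 12 libraries 0. Among genes that overlap no other gene it was 5 of 39 (12.8%), against 5.99% without the site. Before serum, where all libraries are others, siPFDN2 replicate 1 against siControl gave a negative value for 109 of the 146 genes (74.7%) and for 48.8% of the genes without the site. The libraries labelled siPFDN5 after serum share the siControl libraries with this comparison. Against them 23 of the 146 genes were lower (15.8%) and 23 higher, where 12.7% of genes without the site were lower. Of those 14608 genes without the site, 3392 were higher. Negative values were found for 84 of the 146 genes (57.5%, median -0.06) and for 45.3% of the genes without the site (median 0.04).

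**Figure D3:**
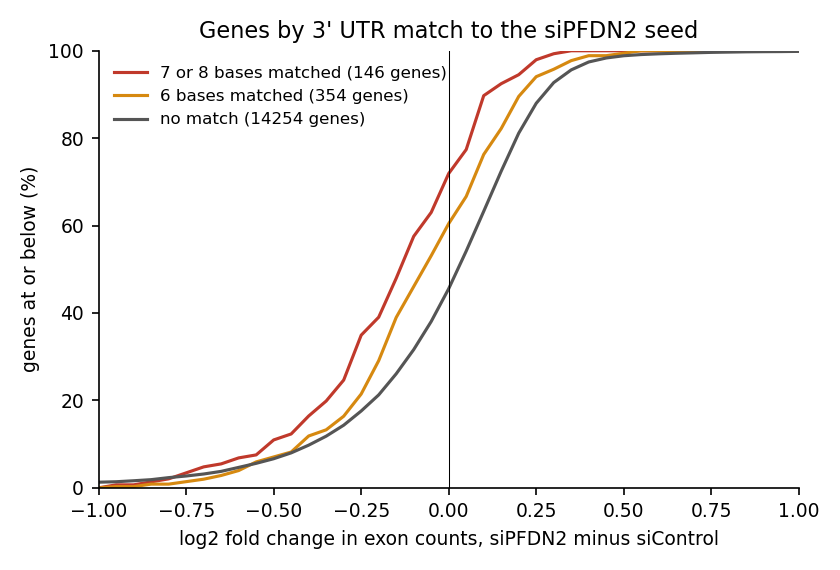
Share of genes (vertical axis, percent) at or below each log2 fold change in exon counts (horizontal axis) for genes whose 3′ untranslated region matches the siPFDN2 seed with 7 or 8 bases, with 6 bases or not. The line of the 146 genes with 7 or 8 bases lies to the left of the others over most of the range, with 71.9% of genes below 0.

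Higher and lower genes differed in length and base composition. The median exon length was 3318 bases in the higher genes and 6658 bases in the lower ones, where all protein-coding genes tested had 4780 bases. In the shortest of 5 classes of protein-coding genes (up to 2642 bases) 331 of 2980 were higher and 32 lower. In the longest class (from 7886 bases) 79 of 2981 were higher and 245 lower. The median GC content was 43.8% in the higher and 55.2% in the lower genes, against 48.5% in all. The mitosis list had a median GC content of 42.9% and a median exon length of 4528 bases, and the matrix list 53.8% and 6652 bases. With the GC trend removed 1522 genes passed, 912 higher and 610 lower, of which 1212 were among the 1963. With GC and exon length trends removed together it was 1290, 811 higher and 479 lower, with 1057 shared.

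**Figure D4:**
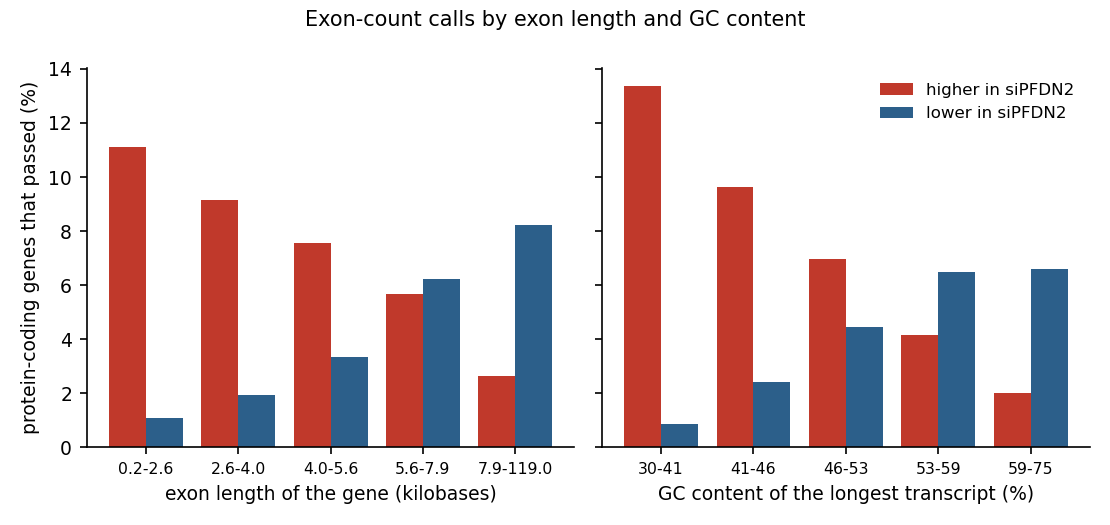
Share of protein-coding genes that passed in exon counts (vertical axis, percent) in 5 classes by exon length (left, kilobases) and by GC content (right, percent), for genes higher (red) and lower (blue) in siPFDN2. Higher genes fall and lower genes rise with length and with GC content, and in the longest class 245 of 2981 genes were lower and 79 higher.

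Intronic counts differed mainly between the siControl replicates. Over the 3584 genes without overlap the intronic share was 5.74% ± 0.54 in siPFDN2 and 7.97% ± 3.25 in siControl (mean ± SD, n = 2 each), a difference of -2.23 percentage points. An exact two-sided permutation test gave p = 0.667, and 2 against 2 libraries cannot go below 0.333. A gene-by-gene test of the share called 0 of these 3584 genes in edgeR (251 unadjusted), 546 without siControl replicate 2 and 0 without replicate 1. In intron counts alone 5297 genes passed without siControl replicate 2 and 2 without replicate 1. Intron log2 fold changes followed gene length, from a median of 0.08 in the shortest of 5 classes of gene bodies to -0.27 in the longest. Without siControl replicate 1 the trend turned, from -0.08 to 0.10, and without replicate 2 it ran from 0.30 to -0.53. The direction of this trend therefore depended on which siControl library was used.

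**Figure D5:**
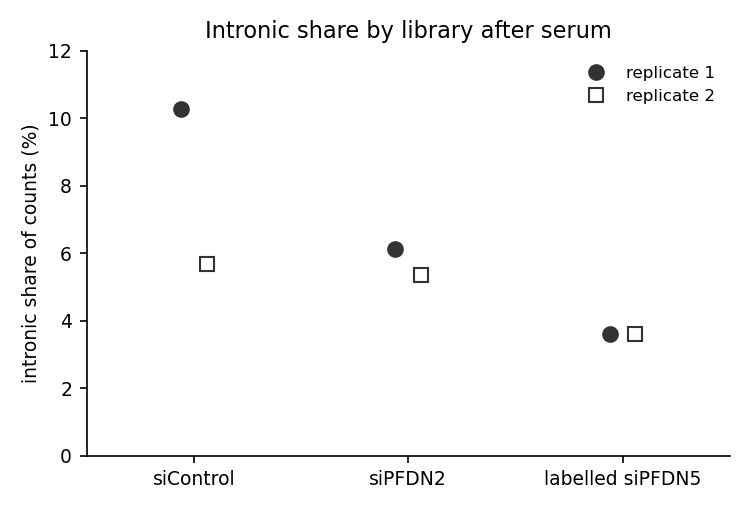
Intronic share of counts (vertical axis, percent) over 3584 genes without overlap in each library after serum (horizontal axis, groups; circles replicate 1, squares replicate 2). siControl replicate 1 lies at 10.3% and the other siControl and siPFDN2 libraries between 5.35% and 6.12%.

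The genes that passed after serum were also read before serum, in libraries that do not enter the comparison. In siPFDN2 replicate 1 against siControl before serum, 1161 of the 1273 higher genes (91.2%) and 623 of the 690 lower genes (90.3%) had the same sign in exon counts, where 50.1% and 49.9% of all tested genes were positive and negative. With both siPFDN2 libraries before serum the numbers were 417 (32.8%) and 281 (40.7%). The direction of this reading therefore rested on siPFDN2 replicate 2 before serum, the library that stood apart. With the GC trend removed and without that library, 839 of 912 (92.0%) and 536 of 610 (87.9%) kept the sign. DHRS2 had a log2 fold change of 1.51 in siPFDN2 before serum, and of 1.35 without that library. Against the same siControl libraries after serum, those labelled siPFDN5 gave -0.82 for DHRS2, -0.46 for MRC2, 0.61 for CDK1 and 0.62 for PFDN2, and in siPFDN2 these were 0.78, -1.05, 0.60 and -1.08. PFDN5 itself stood at a log2 fold change of -0.16 in those libraries.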

How the data were processed

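The 4 libraries were mapped to groups by their titles. The authors deposited fragment counts per gene over gene bodies and over exons for 58051 genes, and per the file headers both tables came from featureCounts 1.5.2 with both ends required to map, fragments over several genes counted for each, Ensembl release 87 of GRCh38 and no strand option. Per the submitters' processing notes the tools were HISAT2 0.12.2, featureCounts 1.5.2 and kallisto 0.43 with build GRCh38.p7. The deposited files per sample hold estimated counts per transcript, although their names say TPM, and the tool that made them is not given in the sources used here. Of 173259 transcripts 159196 were matched to a gene. In both, 6 count columns match no sample label and were not used.

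Intron counts are gene-body minus exon counts, which were below 0 for 0 gene and library pairs. Estimated counts were summed per gene and rounded. Tests were run in R 4.3.3 with edgeR 4.0.16 (TMM scaling, filterByExpr by group, glmQLFit with robust estimation, glmQLFTest, Benjamini-Hochberg adjustment), with DESeq2 1.42.0 as an alternative and limma 3.58.1 installed beside edgeR. The script was tested on simulated data. The fit used 10 libraries of 5 groups, and this choice was made knowing that all 12 gave 0 genes. The members, gene lists and tests were chosen with earlier results of these data known. Trends with GC content or length were removed by lowess with a span of 0.3.

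Named genes were PFDN2 and, among genes that passed with non-overlapping groups and a mean log2 CPM of at least 3, up to 12 in each direction with the largest change in gene-body counts and up to 4 in the other counts, and list members where a sentence needed them. Same-numbered libraries did not deviate together, and the numbers were not taken as pairs. Genes were named with GENCODE 29, which held 57447 of them, and promoters came from RefSeq. The values of 1 member of the gene lists are not reported here.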

Additional observations from a re-analysis of the deposited data

How the results depend on the processing

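The number of genes that passed in gene-body counts (109) moved to 0 with all 12 libraries (edgeR, 1747 at an unadjusted p under 0.05), 0 with the 6 libraries after serum (4269 unadjusted), 1 with the 4 libraries compared, 179 with upper-quartile scaling, 206 with library size only, 2092 without a filter, 27 with GC and exon length trends removed, 1228 in DESeq2, 406 among genes that overlap no other gene and 1249 in transcript estimates. Leaving out 1 library gave 0 to 8554. The number in exon counts (1963) moved to 0 with all 12 libraries (1205 unadjusted), 753 with the 6 and 366 with the 4 libraries, 1003 with library size only, 1290 with GC and length trends removed and 637 among genes without overlap, and leaving out 1 library gave 30 to 5157. In intron counts (0 genes) the values were 7 with the 4 libraries, 2968 with library size only, 223 without a filter and 5 in DESeq2, and 0 to 5297 without 1 library. For the intronic share (0 genes) they were 8 without a minimum count and 0 to 546 without 1 library. The difference of the intronic share was 1.72 percentage points over all genes tested, against -2.23 over genes without overlap. The GC and length trends together, the crossed numbers, the seed sites, the list counts per setting and the calls of named genes without a siPFDN2 library were added after the data had been seen.

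PFDN2 in gene-body counts kept its direction in all 25 alternatives. It did not pass with all 12 libraries (-0.98, adjusted p 0.772), with the 6 (-0.96, adjusted p 0.137) or the 4 (-0.95, adjusted p 0.173), or without 1 siPFDN2 library (adjusted p 0.219 in both), and over the fits without 1 library it ran from -1.03 to -0.83. RPL21P16 reversed in transcript estimates (-2.21). Of the other values for named genes 447 kept direction and call and 308 kept only their direction, and 461 list medians moved by less than the spread while 91 moved by more.

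The replicate numbers did not pair the libraries, since the correlations of same-numbered deviations ran from -0.32 to 0.33 between groups. A replicate block gave 13 genes in gene-body counts and 26 together with the GC trend removed. In exon counts the block gave 1569 genes, and 1287 with the GC trend removed. Crossing the siControl numbers after serum, where the correlation with siPFDN2 was -0.20, gave 173 genes in gene-body and 2236 in exon counts.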

Other observations

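Other gene lists held a few genes each that passed in exon counts. Over all tested genes 5.21% were higher and 2.83% lower, or 8.04% in either direction, and the counts below stand beside these shares. Among genes of the core spliceosome and the PRP19 complex, 4 rose and 2 fell of 31 tested. PRPF8, the scaffold of the catalytic core, stood at 331 and 355 CPM in siPFDN2 and 530.1 and 418 CPM in siControl (log2 fold change -0.47, SE 0.105, adjusted p 0.0217), and the helicase SNRNP200 at 245 and 253 CPM in siPFDN2 and 364 and 299 CPM in siControl (log2 fold change -0.41, SE 0.0926, adjusted p 0.0188). In both genes siControl replicate 1 was the highest library, and neither passed without it (adjusted p 0.0816 and 0.0941). ISY1, PRPF4, SNRPG and CWC15 rose by log2 fold changes of 0.28, 0.30, 0.29 and 0.27. Of 25 kinases and elongation factors of RNA polymerase II, CDK7 and CCNH of the CDK-activating kinase rose by 0.35 and 0.28, NELFE by 0.24 and TCEA1 by 0.30, and 0 fell. For SR proteins and CLK kinases 0 of 18 passed in edgeR (8 at an unadjusted p under 0.05) and 0 in DESeq2. Of all 24422 tested genes, 6162 had an unadjusted p under 0.05 in edgeR.

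In cholesterol synthesis, SQLE stood at 169 and 158 CPM in siPFDN2 and 112 and 133 CPM in siControl (log2 fold change 0.42, SE 0.0871, adjusted p 0.0137), CYP51A1 rose by 0.34 and LSS changed by -0.41, 3 of 22 tested. Of 21 interferon-stimulated genes, IFIT1 stood at 26.9 and 28.7 CPM in siPFDN2 and 18.6 and 21.4 CPM in siControl (log2 fold change 0.47, SE 0.0894, adjusted p 0.00911), DDX58 rose by 0.26 and ISG20 changed by -0.42. The glucose transporter gene SLC2A3 stood at 9.12 and 9.04 CPM in siPFDN2 and 15.7 and 15.8 CPM in siControl (log2 fold change -0.79, SE 0.159, adjusted p 0.0169), and its siPFDN2 libraries were nearly equal and well below both controls. The glycolytic enzyme gene TPI1 and ANKRD37, a hypoxia-responsive gene, rose by 0.36 and 0.44. Of 23 p53 targets, AEN rose by 0.23 and XPC changed by -0.23. In the MYC network MXD4 and MLXIP changed by -0.36 and -0.46 and MAX by 0.28, while MYC itself did not pass. Of keratins and junction genes EPCAM and KRT23 rose by 0.27 and 0.31, and JUP and KRT80 changed by -0.32 and -0.29, 4 of 24. Of 21 lysosome genes HEXA rose by 0.33. LYZ, among the leukocyte markers, stood at 0.646 and 0.658 CPM in siPFDN2 and 0.123 and 0.327 CPM in siControl (log2 fold change 1.44, SE 0.4, adjusted p 0.0394). Of the members of these lists named here as rising or changed, MXD4 alone passed in each of the 11 fits. LYZ did not pass in all of them.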
